A study of Rattus norvegicus with 24 samples.

Results

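Odorant receptor genes were examined on whole-genome arrays of rat liver, a tissue that holds no olfactory neurons. The members were selected on measured signal. They are all array probes named for an odorant receptor (Olr followed by a number) whose spots were marked as well above background, in 50% or more of the probe's spots, on at least 18 of the 24 arrays. Of 1211 odorant receptor probes, which stand for 1169 genes, 206 probes of 204 genes met this rule, or 17.01% of the probes and 17.5% of the genes. Over all 30367 probes of the array, 18811 (61.9%) met the same rule. Because the background marks chose the members, their signals are given as a description and their presence above background is not a finding.

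The study fed male Wistar rats, aged 6 months at the start, a purified diet based on AIN76A for 12 weeks, and took liver at 9 months. Its title describes a diet model of fatty liver disease. The 4 diets crossed copper (less than 0.3 mg per kg, called low here, or 125 mg per kg, called adequate here although the sample titles call it high) with sucrose (10% or 30%), and starch and dextrin made the total carbohydrate equal. There were 6 rats per diet and 1 one-colour Agilent array per rat. The adequate-copper, 10% sucrose diet was the control. The arrays sat on 3 slides of 8. All 6 control rats were on slide 3, and all 6 rats on low copper with 30% sucrose were on slide 1. Of the rats on low copper with 10% sucrose, 4 were on slide 2 and 2 on slide 3, and of those on adequate copper with 30% sucrose, 2 were on slide 1 and 4 on slide 2.

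Odorant receptors are G protein-coupled receptors, and their genes form the largest gene family of the rat genome. In the nose each olfactory sensory neuron settles on a single receptor gene, and the receptor acts through the olfactory G protein (Gnal), adenylyl cyclase (Adcy3), a cyclic nucleotide-gated channel (Cnga2, Cnga4, Cngb1) and a chloride channel (Ano2). Class I receptors, named for fish-like receptors and clustered at a single locus, and class II receptors, spread over many chromosomes, are the main branches. Transcripts of some receptors have been described outside the nose, with testis the best-known site.

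The probes are shown first because each member is known here only through a 60-base probe. The 4 members with the highest signal were Olr1375 (Or1f26 in current RefSeq naming), at chr10:12520296-12520355 on the minus strand of rn4, Olr1439 (Or2ak6), at chr10:44704257-44704316 on the plus strand, Olr3 (Or10am5), at chr1:65743839-65743898 on the plus strand, and Olr567 (Or8w1b), at chr3:71196637-71196696 on the minus strand. Coordinates are those of the probe in the array files, and capitals mark G and C.
Olr1375: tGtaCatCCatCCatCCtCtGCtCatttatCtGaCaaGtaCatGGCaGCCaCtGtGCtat
Olr1439: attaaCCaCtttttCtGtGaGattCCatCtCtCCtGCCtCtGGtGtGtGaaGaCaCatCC
Olr3: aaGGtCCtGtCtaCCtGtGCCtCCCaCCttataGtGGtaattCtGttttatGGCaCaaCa
Olr567: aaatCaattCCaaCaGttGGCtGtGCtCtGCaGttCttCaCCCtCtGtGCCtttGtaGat

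The 3 members with the largest copper by sucrose interactions were Olr1515 (Or1p1e), at chr10:61516540-61516599 on the plus strand, Olr1138 (Or7g25), at chr8:17292938-17292997 on the minus strand, and Olr77 (Or51f1g, a class I receptor), at chr1:160853857-160853916 on the plus strand. Capitals again mark G and C.
Olr1515: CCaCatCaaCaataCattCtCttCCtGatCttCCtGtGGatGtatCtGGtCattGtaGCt
Olr1138: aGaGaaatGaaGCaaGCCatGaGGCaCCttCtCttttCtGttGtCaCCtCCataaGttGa
Olr77: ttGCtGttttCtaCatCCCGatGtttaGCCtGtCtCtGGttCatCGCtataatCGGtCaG

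A level in what follows is the log2 of a probe's processed signal over the 75th percentile of its own array, so that 0 is the signal of the probe at that percentile. Signals of different probes also depend on how each probe binds, so an order of levels is an order of signals and not of RNA amounts. The 75th percentile lay between 434 and 1287.5 signal units over the 24 arrays. The 308 negative control spots of each array had median processed signals of 2.93 to 6.97, and 0.649% to 2.27% of them were marked as well above background. Between 59.9% and 73.4% of all probes were well above background on an array, and the hepatocyte markers were all detected, with Alb (albumin) at a level of 8.67 and Ttr (transthyretin) at 9.07.

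Most members were dim. The median member level was -3.88, in a range from -5.33 to 4.10, against -1.83 for the 21181 probes kept for testing (well above background on 6 or more arrays) and -7.24 for the odorant receptor probes that were not members. In processed signal, the members' medians over the arrays ran from 17.7 to 12671, with 116 of 206 under 60 and 40 under 30. Only 4 members had a mean level above 0, 24 were above -2, and 108 were above -4. No member was saturated on any array. Of the 206, 121 were well above background on all 24 arrays. At the other end of the family, 346 odorant receptor probes were on no array.

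At the edge of the rule, 9 probes were well above background on exactly 18 arrays, with mean levels of -5.26 to -4.93 (Olr1641, Olr1635, Olr1124 and Olr786 were the highest of them). Another 8 were on 17 arrays and so were left out, with levels of -5.12 to -4.68, led by Olr1450 at -4.68 and Olr416 at -4.70. The ranges overlapped in part, and the 4 brightest of the probes left out (Olr1083 at -4.83 and Olr40 at -4.85 are the others) had higher levels than every probe on 18 arrays. The dimmest members by mean level were Olr1102 at -5.33, the dimmer of the 2 Olr875 probes at -5.26, Olr50 at -5.24 and Olr658 at -5.23.

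A single member stood far above the rest in signal. Olr1375 had levels of 3.49, 3.90 and 5.02 (lowest, median and highest of 6 rats) on the control diet and 3.32, 4.06 and 5.08 on low copper with 10% sucrose. It had 3.82, 3.97 and 5.05 on adequate copper with 30% sucrose, and 3.43, 4.09 and 4.41 on low copper with 30% sucrose. The 4 diets overlapped throughout. Its processed signal never fell under 7989 on any array, and its spots on an array differed by an SD of only 0.04 on the log2 scale. Its low-copper difference at 10% sucrose was 0.12 (SE 0.28, limma adjusted p = 0.843). The receptor's nearest neighbour on the array, Olr1374, whose probe lies 14695 bases away, was well above background on 0 arrays.

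The next 3 members by signal lay near the 75th percentile of their arrays. Olr1439 had a mean level of 0.59 and the smallest spread of all members over the 24 rats (SD 0.21), and the probe of its neighbour Olr1440, 12989 bases away, was on 0 arrays. On the control diet Olr1439 had levels of 0.00, 0.60 and 0.75 (lowest, median and highest). The medians on the other 3 diets were 0.61, 0.62 and 0.60. Olr567, with a mean of 0.12 and an SD of 0.23, was as even, with medians between 0.10 and 0.16 on the 4 diets. The probe of Olr569, 7667 bases from that of Olr567, was itself on 24 arrays. Neither Olr1439 nor Olr567 had a difference past the threshold in any of the 7 diet comparisons. Olr3, with a mean level of 0.21, varied more, from -1.43, -0.30 and 0.54 on the control diet to 0.03, 0.29 and 1.90 on adequate copper with 30% sucrose. The ranges overlapped, and the difference of 0.95 (SE 0.34) had a limma adjusted p of 0.0489. Olr1353 (Or9s13) at -0.37 and Olr325 (Or4d6) at -0.41 completed the 6 highest (Olr1352, the neighbour of Olr1353, was on 24 arrays too), and Olr325 is the brightest member that passed the threshold on low copper at 10% sucrose (0.85, adjusted p = 0.00338).

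**Figure D1:**
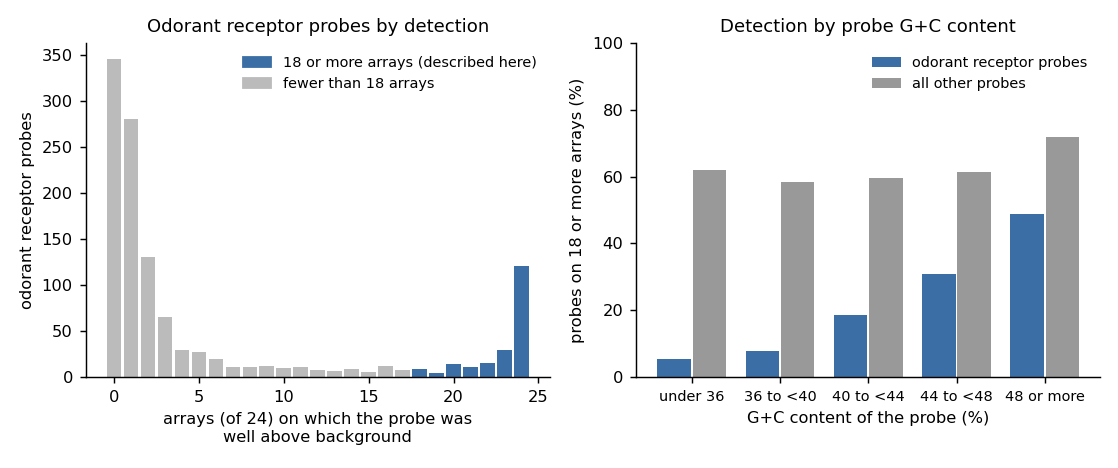
Left, number of odorant receptor probes (y axis) by the number of arrays on which they were well above background (x axis), with the members at 18 or more in blue. Right, share of probes on 18 or more arrays (y axis, percent) by G and C content (x axis, percent), which rises from 5.61% to 48.9% for odorant receptor probes and lies between 58.4% and 72.0% for other probes.

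At the median, member probes were richer in G and C than the odorant receptor probes that were not members. The median member probe was 45% G and C (range 35% to 55%), the same as the median of the probes not named for odorant receptors, while the odorant receptor probes that were not members had a median of 38.3%. Under 36% G and C, 18 of 321 odorant receptor probes (5.61%) were members. The share was 7.83% at 36 to under 40%, 18.7% at 40 to under 44%, 30.8% at 44 to under 48%, and 22 of 45 probes (48.9%) at 48% or more. Over the same bins, the share of the other probes on 18 or more arrays was 61.9%, 58.4%, 59.5%, 61.4% and 72.0%. The relation is given as a description, and its part in the signal was not tested.

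No branch of the family held the members to itself. Class I receptors (families Or51 to Or56 in current naming) gave 26 members of 126 probes (20.6%), and class II receptors 166 of 999 (16.6%). The families with the most members were Or4 with 24 of 145 probes, Or2 with 23 of 119, and Or5 and Or1 with 20 each of 157 and 95. By chromosome, chr1 held 54 of its 288 odorant receptor probes as members, chr3 42 of 292, chr10 30 of 123 and chr8 20 of 159. Of the 206 members, 121 had another odorant receptor probe within 20000 bases on rn4, and 39 had another member that close. Members are 17.01% of all odorant receptor probes, and no expected number of member neighbours was worked out.

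In member genes with several probes, the other probes seldom met the rule as well. These genes were chosen for holding a member, and receptors with several probes but no member were left out. How often separate probes for the same receptor give the same reading was therefore not tested. Of the 12 member genes with several probes, only Olr1366 and Olr875 had 2 members, and in the other 10 the remaining probes were well above background on 0 to 16 arrays. The Olr200 pair and the Olr1366 pair are shown because they are the extremes. The Olr200 probes lie at chr1:163043576-163043635 and chr1:163043638-163043697 on the plus strand of rn4. Both have 45% G and C, yet the first was on 24 arrays at a mean level of -3.50 and the second on 0 arrays at -7.26. The Olr1366 probes lie at chr10:12334992-12335051 and chr10:12334327-12334386 on the minus strand, both have 55% G and C, and both were on 24 arrays, at -3.03 and -3.80. Capitals mark G and C.
Olr200, on 24 arrays: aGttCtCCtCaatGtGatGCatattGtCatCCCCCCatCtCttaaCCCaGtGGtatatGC
Olr200, on 0 arrays: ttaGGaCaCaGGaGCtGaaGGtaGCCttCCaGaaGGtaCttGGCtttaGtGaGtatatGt
Olr1366, first probe: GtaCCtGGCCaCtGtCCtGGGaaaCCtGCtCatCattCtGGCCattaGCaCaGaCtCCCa
Olr1366, second probe: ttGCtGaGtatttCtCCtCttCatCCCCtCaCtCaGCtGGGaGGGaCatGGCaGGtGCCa

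Nearly identical probes also differed in signal. The pairs for Olr196 (chr1:162966514-162966573 and chr1:162966521-162966580, minus strand) and for Olr875 (chr7:2314461-2314520 and chr7:2314468-2314527, plus strand) each share a run of 53 bases, given in capitals here. The first Olr196 probe was on 24 arrays at -3.59 and the second on 14 arrays at -5.31. The Olr875 probes were on 24 and 18 arrays, at -4.28 and -5.26.
Olr196, on 24 arrays: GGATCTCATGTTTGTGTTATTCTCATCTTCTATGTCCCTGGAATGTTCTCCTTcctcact
Olr196, on 14 arrays: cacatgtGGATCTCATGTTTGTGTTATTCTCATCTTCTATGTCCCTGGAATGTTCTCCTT
Olr875, on 24 arrays: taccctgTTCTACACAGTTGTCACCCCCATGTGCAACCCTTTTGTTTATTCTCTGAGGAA
Olr875, on 18 arrays: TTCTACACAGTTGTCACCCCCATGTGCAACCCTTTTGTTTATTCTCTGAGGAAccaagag

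The remaining pairs went the same way. Olr1525 had a probe on 24 arrays and a probe on 1 array, and Olr206 a probe on 24 and a probe on 3. The 2 probes named for Olr1088, on 24 and 1 arrays, lie apart on rn4 and were designed on different transcript records, so they may not read the same transcript. Olr1057 had probes on 23 and 1 arrays and Olr883 on 22 and 0. Olr1411 and Olr1454 were closer, with a probe on 24 arrays each and the other on 15 and 16, and Olr165 had 3 probes on 19, 2 and 0 arrays. A probe on 0 or 1 array has only a background reading, so no size is given for these gaps.

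**Figure D2:**
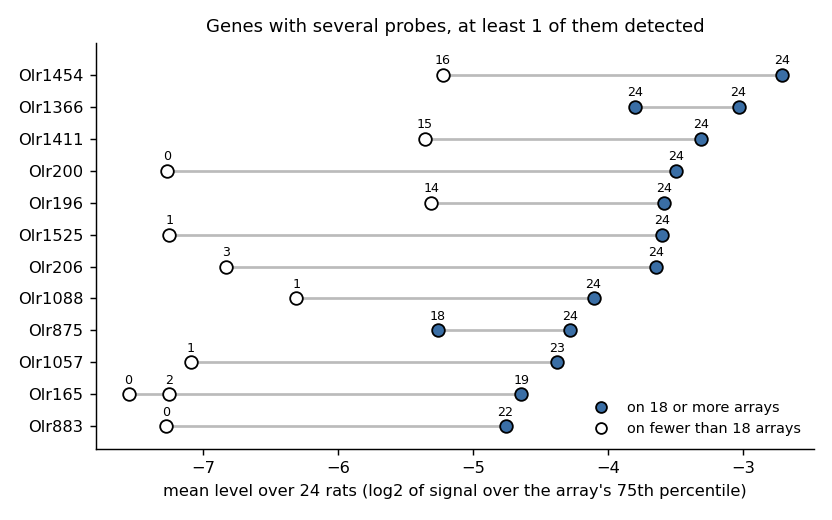
Mean level over 24 rats (x axis, log2 of signal over the array's 75th percentile) of each probe of the 12 member genes with several probes (y axis), with the number of arrays above each point, filled points for probes on 18 or more arrays and a line joining the probes of a gene. Only Olr1366 and Olr875 have 2 filled points.

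Members varied among rats by more than most probes did. Their SD over the 24 rats had a median of 0.56, against 0.40 for all probes, and the SD between the spots of a member on the same array had a median of 0.39, against 0.19 for all probes. The odorant receptor probes that were not members varied as well, with medians of 0.52 over the rats and 0.55 between spots. The number of members well above background on an array ran from 139 to 202 on the control diet, and from 202 to 206 on low copper with 10% sucrose. It ran from 197 to 206 on adequate copper with 30% sucrose and from 179 to 206 on low copper with 30% sucrose. Of the members, 128 were on all 6 control arrays, against 199, 192 and 170 on the other 3 diets in that order. These counts use the same marks that chose the members, so nothing is read from them about the diets. Every member was on at least 1 array of every diet, although a probe on 18 arrays could have missed a whole diet. Over all odorant receptor probes, the number well above background on an array lay between 151 in a control rat and 433 in a rat on low copper with 10% sucrose.

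The median level over the 206 members separated the control rats from most others. It was -4.60, -4.52 and -4.40 (lowest, median and highest rat) on the control diet and -4.30, -3.40 and -2.97 on low copper with 10% sucrose. It was -3.78, -3.60 and -3.38 on adequate copper with 30% sucrose, and -4.43, -3.85 and -3.47 on low copper with 30% sucrose. Every rat on low copper at 10% sucrose or on 30% sucrose at adequate copper was above every control rat in this median, whereas the lowest rat on low copper with 30% sucrose was within the control range. The same median over all kept probes was between -1.95 and -1.66 in the 24 rats. Before scaling, the members' median processed signal overlapped between diets. It was 22.6 to 43.0 on the control diet and 30.9 to 98.5 on low copper with 10% sucrose. On 30% sucrose it was 41.6 to 83.2 with adequate copper and 42.9 to 60.9 with low copper. For odorant receptor probes that were not members, the median level averaged -7.57 in control rats. On the other diets, in the order above, it averaged -7.29, -7.20 and -7.36.

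**Figure D3:**
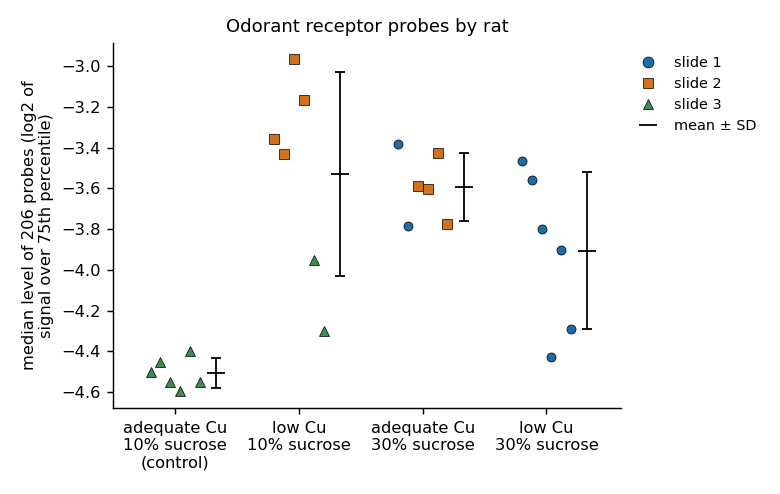
Median level of the 206 members in each rat (log2 of signal over the array's 75th percentile), by diet, with the slide of the array shown by the marker. The 6 control rats lie between -4.60 and -4.40, and the rats of the low-copper, 10% sucrose diet lie lower on slide 3 (-4.30 and -3.95) than on slide 2 (-3.43 to -2.97).

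On low copper with 10% sucrose, members were higher than on the control diet. Of 206 members, 167 (81.1%) were called higher and 0 lower (limma, Benjamini-Hochberg adjusted p under 0.05 over all kept probes), where 17.3% of all kept probes were called higher. The median member difference was 0.94 on the log2 scale, against 0.05 over all kept probes, and the called differences ran from 0.45 to 2.71. All control rats were on slide 3, and with the slide as a block 0 members were called by limma (53 at an unadjusted p under 0.05) and the median was 0.41. Of all 21181 kept probes, that fit called 0 as well, with 1393 at an unadjusted p under 0.05. In 59 members every rat on low copper was above every control rat, a pattern found in 5% of all kept probes. The members share their low signal, and among kept probes with levels between -5 and -4 that are not odorant receptors 33.3% were called higher with a median difference of 0.42, against 87.8% and 1.04 for the 90 members in that band. Of the 4 members with a level above 0 the smallest limma adjusted p here was 0.0848 (Olr3), and 1.39% of the 6609 other probes above 0 were called.

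Olr1515 had the largest difference of all members. Its levels were -7.01, -6.66 and -5.76 on the control diet (lowest, median and highest), where it was well above background on 2 of 6 arrays. They were -5.54, -3.67 and -3.12 on low copper with 10% sucrose. The groups did not overlap, and the difference was 2.71 (SE 0.31, limma adjusted p = 0.000213). Olr50 (Or52r1, a class I receptor), on 2 control arrays as well, differed by 2.13 (SE 0.36, adjusted p = 0.000904). Olr1138 had levels of -7.09, -6.43 and -5.79 on the control diet and -5.51, -4.19 and -3.21 on low copper with 10% sucrose, again with no overlap, and a difference of 2.04 (SE 0.32, adjusted p = 0.000858). On the control arrays, Olr1515 and Olr50 were well above background in 2 rats and Olr1138 in 3, so these 3 differences are set against signals at or near background.

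On 30% sucrose with adequate copper, members were also higher than on the control diet, whose 6 rats both comparisons share. Of 206 members, 158 (76.7%) were called higher and 0 lower, where 17.7% of all kept probes were called higher. The median member difference was 0.89, against 0.07 over all kept probes, and the called differences ran from 0.43 to 2.15. No slide holds both diets, and with the slide as a block 0 members were called by limma (11 at an unadjusted p under 0.05) and the median was 0.08. Of all 21181 kept probes, that fit called 0 as well, with 851 at an unadjusted p under 0.05. In 123 members every rat on 30% sucrose was above every control rat, a pattern found in 11.6% of kept probes. Olr1515, which passed the rule with only 2 of 6 control arrays above background, had the largest fitted difference, at -5.13, -4.28 and -4.11 on 30% sucrose, with a difference of 2.15 (SE 0.31, adjusted p = 0.000423). Olr77 went from -5.98, -5.22 and -4.63 on the control diet to -4.03, -3.45 and -2.75, without overlap and with 3 of 6 control arrays above background, and differed by 1.88 (SE 0.35, adjusted p = 0.00125). Olr1138 reached -5.0, -4.50 and -4.32 and differed by 1.81 (adjusted p = 0.0011).

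The low-copper difference was lower at 30% sucrose than at 10% sucrose. The interaction, which is the low-copper difference at 30% sucrose minus that at 10% sucrose, was called lower in 163 of 206 members (79.1%) and higher in 0, where 18.3% of all kept probes were called lower. Its median was -1.25 in the members and -0.09 over all kept probes. With the slide as a block 1 member was called, the member median was -0.71, and 0.0472% of all kept probes were called lower. Olr1515 had levels of -5.14, -4.66 and -4.18 on low copper with 30% sucrose, above every control rat and within its range on low copper with 10% sucrose, and an interaction of -2.99 (SE 0.44, limma adjusted p = 0.000701). Olr1138, at -5.75, -5.39 and -4.90 and above background on 3 of these 6 arrays, had an interaction of -2.82 (SE 0.45, adjusted p = 0.00094). Olr77, at -4.09, -4.07 and -3.48, had one of -2.44 (SE 0.49, adjusted p = 0.00243).

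**Figure D4:**
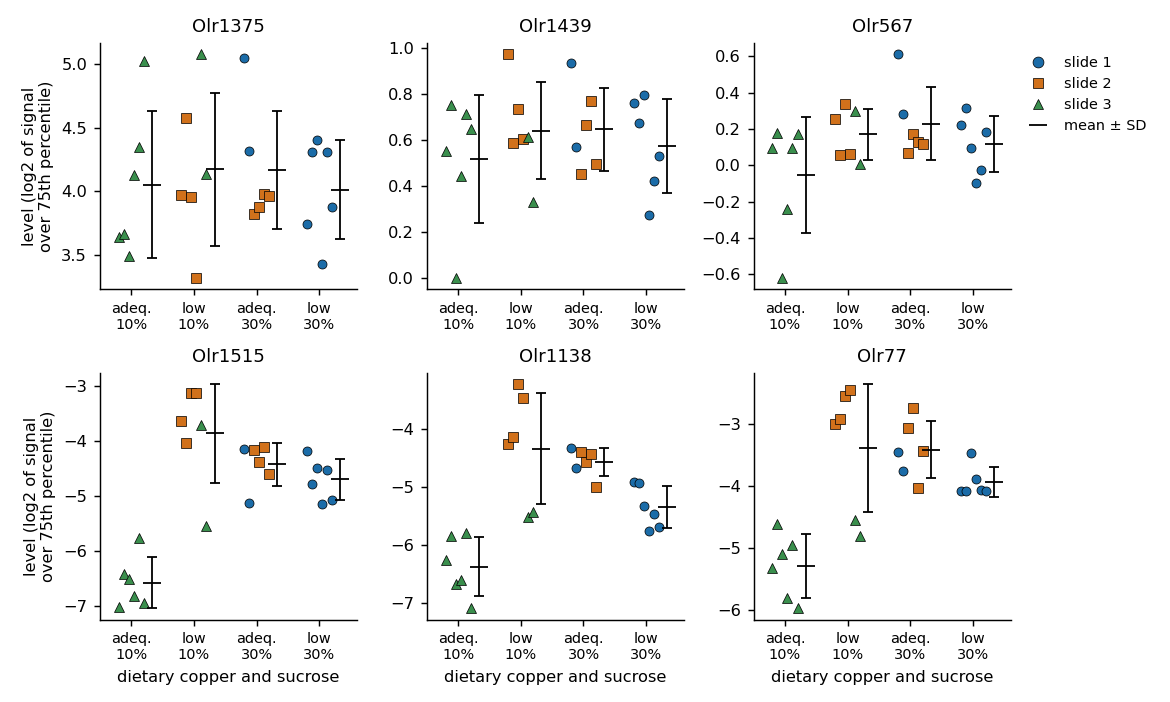
Level of 6 members in each of the 24 rats (log2 of signal over the array's 75th percentile), by diet: Olr1375, Olr1439 and Olr567, which are bright, and Olr1515, Olr1138 and Olr77, which had the largest interactions. The bright receptors overlap across all diets, while the control rats of Olr1515 lie between -7.01 and -5.76, under every other rat.

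The other 4 comparisons called 0 members and 0 of all kept probes (0%) by limma. Kept probes at an unadjusted p under 0.05 numbered 2059 for low copper at 30% sucrose and 2011 for 30% sucrose at low copper. For the copper and the sucrose difference, each averaged over the other factor, they numbered 1813 and 2264. Each of these counts is out of 21181 kept probes, and the member counts below are out of 206. Low copper at 30% sucrose had a median member difference of -0.28, with 30 members at an unadjusted p under 0.05. The smallest p-values there belonged to Olr1117 (Or7g23), at -0.61, and Olr227 (Or10a5), at -0.98, both with an adjusted p of 0.455. For 30% sucrose at low copper the median was -0.34, with 47 members at an unadjusted p under 0.05, and Olr1117 differed by -0.75 (adjusted p = 0.394) and Olr786 (Or4f60b) by -1.04 (adjusted p = 0.419). The copper difference averaged over both sucrose levels had a median of 0.32, with 93 members at an unadjusted p under 0.05. Its smallest p-values were those of Olr1515 at 1.22 (adjusted p = 0.277) and Olr213 (Or13n4b) at 0.54 (adjusted p = 0.383). The sucrose difference averaged over both copper levels had a median of 0.27, with 63 members at an unadjusted p under 0.05, and Olr1519 (Or1d2) at 0.51 (adjusted p = 0.227) and Olr791 (Or4f14d) at 0.69 (adjusted p = 0.231) had the smallest p-values. Without rat 6 of the low-copper, 10% sucrose diet, 2 members were called for the averaged copper difference (0.0803% of all kept probes) and 1 for 30% sucrose at low copper (0.227%).

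The slide moved with these results. Within low copper at 10% sucrose, the 4 rats on slide 2 exceeded the 2 on slide 3 by a median of 0.71 over the members, with 191 of 206 above 0, while the median over all kept probes was 0.04. Within adequate copper at 30% sucrose, slide 1 and slide 2 differed by a median of 0.01, with 104 of 206 members higher on slide 1. In a model with diet and slide together, limma called the slide for 53 members, where 5.35% of all kept probes were called. That count was 5 without rat 6 of the low-copper, 10% sucrose diet, and 29 without rat 3 or rat 5 of that diet. Over all kept probes the count fell too, from 1133 to 155 without rat 6, 725 without rat 3 and 681 without rat 5. The median member was 0.77 lower on slide 3 than on slide 1 in that model (-0.77), and differed by -0.01 between slides 2 and 1. The smallest p-values were those of Olr741 (Or4b1), which was -1.76 on slide 3 relative to slide 1 (adjusted p = 0.000506), Olr1226 (Or8c18) at -2.16 (adjusted p = 0.000648), Olr1111 (Or11m3) at -1.94 (adjusted p = 0.001) and Olr1229 (Or8c10b) at -1.08 (adjusted p = 0.0011).

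With the slide as a block, limma called 0, 0 and 1 members for low copper at 10% sucrose, 30% sucrose at adequate copper and the interaction (53, 11 and 74 at an unadjusted p under 0.05). Of all 21181 kept probes, 0, 0 and 10 were called, and 1393, 851 and 2764 were at an unadjusted p under 0.05. The median of 0.41 for low copper at 10% sucrose then rests on the 2 low-copper and 6 control rats of slide 3, and 193 of 206 members were above 0 there. That value depends on the scaling between arrays. Before scaling, the members' median processed signal was 38.6 and 30.9 in those 2 low-copper rats, inside the control range of 22.6 to 43.0. Both of those 2 rats were above all 6 control rats in 62 members, a pattern found in 7.38% of all kept probes. For the interaction with the block, 0.0472% of all kept probes were called lower. Olr1515 had 1.95 (SE 0.39, adjusted p = 0.318) for low copper at 10% sucrose in that fit, Olr1138 had 0.91 (adjusted p = 0.655) and Olr77 had 0.03 for 30% sucrose at adequate copper. On slide 1, where 6 low-copper and 2 adequate-copper rats on 30% sucrose could be compared, the median member difference was -0.27 and 33 of 206 were above 0. The control diet lies on slide 3 alone and the low-copper, 30% sucrose diet on slide 1 alone, so for those groups diet and slide cannot be told apart beyond these within-slide values.

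**Figure D5:**
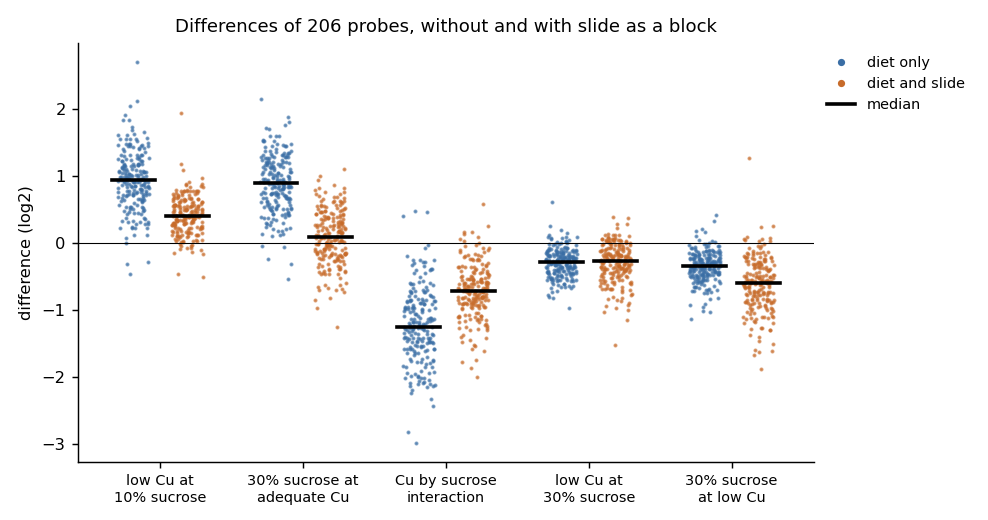
Log2 differences (y axis) of the 206 members in 5 diet comparisons (x axis), each point 1 probe and each bar the median, in the model with diet only (blue) and with diet and slide (orange). The median moves from 0.94 to 0.41 for low copper at 10% sucrose, from 0.89 to 0.08 for 30% sucrose at adequate copper and from -1.25 to -0.71 for the interaction.

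The scale of the arrays also bears on the counts. Without scaling between arrays, limma called 43 members higher on low copper at 10% sucrose, where 3.21% of all kept probes were called higher, and 41 higher on 30% sucrose at adequate copper, where 3.48% were. It called 0 members and 0 of all kept probes for the interaction (112 members and 4011 of all 21181 kept probes at an unadjusted p under 0.05). The median member differences were then 0.77, 0.74 and -0.87, while the medians over all kept probes were -0.11, -0.09 and 0.29. The direction of the member median in these 3 comparisons was the same with this and with quantile scaling.

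Other chemosensory receptor probes were called in the same directions. Of the odorant receptor probes that were kept but were not members (125), 92 were called higher on low copper at 10% sucrose, 85 higher on 30% sucrose at adequate copper and 85 lower for the interaction, with medians of 1.22, 1.04 and -1.52. Of 55 kept vomeronasal receptor probes, which detect pheromones, 36, 28 and 31 were called in the same directions. Trace amine receptors gave 3 and 4 higher and 1 lower of 6, and taste receptors 4 and 3 higher and 1 lower of 9. The rule of 6 arrays lets in probes that are above background only where they are high, so these counts describe the probes kept and no more. Among members on all 24 arrays, which could not enter that way, 94, 87 and 91 of 121 were called. In a fit of only the 16668 probes on all 24 arrays, 89, 85 and 90 of these 121 were called. Over all 16668 probes of that fit, 1948 and 2068 were called higher and 2166 lower, in the same order.

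Of the genes that serve these receptors in the nose, 14 of the 28 on the olfactory transduction list had a probe on 18 or more arrays. Of 12 olfactory sensory neuron markers, 4 had a probe on 18 or more arrays: Gng13 (a G protein gamma subunit), Gnal, Rtp1 (which carries receptors to the cell surface) and Ncam2 (an adhesion molecule). Adcy3, Ano2 and Stoml3 were well above background on 0 arrays, Omp (olfactory marker protein), Cnga2 and Cnga4 on 1 array, and Cngb1 on 17. Of 33 probes on the olfactory transduction list, 20 were kept, and 9 were called higher on low copper at 10% sucrose, 7 higher on 30% sucrose at adequate copper and 8 lower for the interaction, with median differences of 0.49, 0.34 and -0.77. Over all kept probes, 17.3%, 17.7% and 18.3% were called in those directions. Here too, the rule for kept probes lets in probes that are above background only where they are high.

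Among the listed genes with high signal are several expressed in many tissues. Pde4a (a cyclic AMP phosphodiesterase) had a mean level of -0.50, Cbx5 (a heterochromatin protein) -0.71 and Gnb1 (a G protein beta subunit) -0.95, followed by Kdm1a (a histone demethylase) at -1.40 and Lhx2 (a transcription factor) at -2.02. Of these 5, only Pde4a passed the threshold, at 0.58 (adjusted p = 0.00646) on low copper with 10% sucrose and 0.83 (adjusted p = 0.00101) on 30% sucrose with adequate copper. Rtp1 rose by 0.69 (adjusted p = 0.00312) and 0.63 (adjusted p = 0.00565). The brighter Gng13 probe rose by 0.57 (adjusted p = 0.0067) on low copper with 10% sucrose, and Gnal differed by 0.07 (adjusted p = 0.871). The olfactory sensory neuron markers did not all move together. Differences of their 6 kept probes on low copper with 10% sucrose ran from -0.75 to 0.69, with 3 called higher and 0 lower. For the interaction, 3 of these 6 were called lower and 1 higher.

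Markers of some other cells were called in the same comparisons, and those of others were not. Over all kept probes, 17.3% were called higher on low copper at 10% sucrose and 17.7% on 30% sucrose at adequate copper. The marker lists are short, and no list was tested against those shares. Of 5 neutrophil marker probes, 2 were called higher on low copper at 10% sucrose and 4 on 30% sucrose at adequate copper. The summed level of the neutrophil list (log2 of its probes' summed signal over the array's 75th percentile) ran from -2.57 to -1.84 on the control diet, from -1.89 to 1.79 on low copper with 10% sucrose, from -1.21 to 4.26 on adequate copper with 30% sucrose and from -2.11 to -0.57 on low copper with 30% sucrose. The lymphocyte list, with 2 of 4 probes called in each of these 2 comparisons, ran from -0.92 to -0.43 on the control diet and, in the same order of diets, from -0.41 to 1.03, from 0.03 to 0.85 and from -0.64 to 0.37. The summed hepatocyte list overlapped across diets, between 10.49 and 11.51. The summed signal of the members on the same scale ran from 4.87 to 5.74 on the control diet, and from 5.34 to 5.94, 5.47 to 6.19 and 4.98 to 5.68 on the other diets. Of 5 testis markers, Prm1 and Prm2 (protamines, which pack sperm DNA) were on 24 arrays and Tnp1, Odf1 and Tnp2 on 1, 1 and 0, and Prm2 rose by 1.14 (limma adjusted p = 0.00661) on low copper with 10% sucrose and by 1.26 (adjusted p = 0.00385) on 30% sucrose with adequate copper. Prm1 differed by 0.07 (adjusted p = 0.883) and 0.22 (adjusted p = 0.542). Of 10 red blood cell marker probes 1 and 3 were called higher in these comparisons, and of 8 stellate cell probes 1 and 2. Of 3 kept neuron marker probes 2 and 0 were called higher, and those 2 are probes of a single gene, Stmn2. Of 8 Kupffer cell probes 2 and 2 were called higher, in each comparison the 2 probes of Csf1r. By limma 0 of 13 hepatocyte, 6 liver endothelium and 5 cholangiocyte probes were called in either comparison, and those at an unadjusted p under 0.05 were 0, 0 and 1 on low copper at 10% sucrose and 4, 0 and 1 on 30% sucrose at adequate copper. Over all 21181 kept probes, 5847 and 6886 were at an unadjusted p under 0.05 in these 2 comparisons. The part of the listed cell types in the members' differences was not tested, and in whole liver fewer cells of a type and less RNA per cell cannot be told apart.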

How the data were processed

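Liver RNA of 24 rats was measured on 1 one-colour Agilent array each. Per the file headers, scanner files were made with Agilent Feature Extraction 10.7.3.1 on the rn4 build, and each deposited intensity had local background and spatial trend removed array by array. The same deposited files hold the marks for spots well above background. The deposited series table gives a score per probe whose scale is not given in the sources used here, so it served only as an alternative.

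Spots marked as outliers (0.652%) were left out where a probe had others, spots of a probe were averaged, and the deposited intensities were expressed as log2 minus the log2 of the array's 75th percentile. Probes well above background on 6 or more arrays (21181) entered limma 3.58.1 in R 4.3.3 with a mean per diet, 7 diet contrasts, and Benjamini-Hochberg adjustment at 0.05 over all of them, checked on simulated data. Tables used Python 3.11.15 and pandas 2.3.3. Genes are the array's names, and 201 of the 206 members have a current symbol in RefSeq's gene table, used for names only. Genes named in the text are those with the largest differences or smallest p-values per comparison, the highest and lowest signals and SDs, the edge of the rule, genes with 2 members, and the smallest slide p-values. Members and lists were chosen with earlier results of these data known. Rats with the same number did not deviate together (pair correlations from -0.30 to 0.36), so the numbers pair no rats. Precision is limited by 6 rats a diet and by signals near background.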

Additional observations from a re-analysis of the deposited data

Results flagged for a closer look

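The copper difference depended on sucrose in 163 of 206 members, by limma's test of the interaction itself (18.3% of all kept probes were called lower). Diet and slide are confounded in part: with the slide as a block 1 member was called, and 0.0472% of all kept probes were called lower. Without scaling between arrays, 0 members and 0 of all kept probes were called. The largest interactions were those of Olr1515 at -2.99, Olr1138 at -2.82 and Olr77 at -2.44 on the log2 scale. These probes were well above background on only part of the control arrays and met the rule mainly on other diets. Their sizes are therefore set against signals at or near background and are given as a description.

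Single rats stood apart from the other 5 of their diet in 5 of 128 groups of 6 that were looked at (3.91%), by a gap to the nearest rat of more than 0.625 of the group's range. Chance alone gives about 5% of such groups. Olr77 was at -3.48 in rat 3 on low copper with 30% sucrose, above the others. Olr50 was at -6.13 in rat 2 on adequate copper with 30% sucrose, below the others. Olr1117 was at -4.26 in control rat 5, Olr1143 at -1.72 in rat 5 on adequate copper with 30% sucrose, and Olr1641 at -3.97 in rat 1 of that diet, each above the others.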

How the results depend on the processing

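Member counts for low copper at 10% sucrose, 30% sucrose at adequate copper and the interaction, 167, 158 and 163 as reported, were 0, 0 and 1 with the slide as a block. With quantile normalization they were 101, 82 and 92, without scaling 43, 41 and 0, and they were 63, 23 and 36 in the authors' deposited series values. With all probes required on all 24 arrays they were 89, 85 and 90, and over the 121 members on all 24 arrays in the reported fit 94, 87 and 91, where fewer members enter. The slide as a random block gave 136, 72 and 96, and normexp correction 112, 96 and 152. Calls in the same directions over all 21181 kept probes were 3664, 3759 and 3868 as reported, and 0, 0 and 10 with the slide as a block. They were 2541, 1474 and 2070 with the random block and 2121, 2153 and 3615 with normexp. Quantile normalization gave 1816, 1827 and 1924 of them, and the authors' deposited series values 969, 633 and 992. The 53 members called for the slide became 6 with normexp, 30 with quantile normalization, 19 with a replicate block, and 24 with the filter of all 24 arrays. Over all probes tested, the 1133 called for the slide became 90, 688, 478 and 499 in that order. With a replicate block on the rat number the diet counts were 171, 161 and 167, against 3830, 3862 and 3982 over all kept probes. No filter on dim probes, 1 probe per gene name, an intensity trend and only the 2 diets compared kept the counts within 1.5 times. Leaving out each rat in turn gave 141 to 172, 134 to 160 and 142 to 173, 0 to 2 for the averaged copper difference, 0 to 1 for 30% sucrose at low copper, 0 for the averaged sucrose difference and for low copper at 30% sucrose, and 5 to 57 for the slide. Of the differences of named members, Olr791 changed sign, to -0.075 for the averaged sucrose difference with the slide as a block, where 9 others were no longer past the threshold, as were 3 each without scaling, with normexp and in the authors' deposited series values. The slide's count was not run with the slide itself as a block, with an intensity trend or on the authors' table. Causes of these changes were not tested. Quantile normalization moved the calls over all kept probes from 3664 higher and 119 lower to 1816 and 497 on low copper at 10% sucrose, and from 3759 and 506 to 1827 and 1029 on 30% sucrose at adequate copper, while all called members were higher under both. Signals near background also limit the members: 40 had a median processed signal under 30.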
